A study of Mus musculus with 24 samples.

Results

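Growth hormone from the pituitary binds its receptor on hepatocytes, the receptor-bound kinase JAK2 phosphorylates STAT5, and STAT5 enters the nucleus and switches on target genes. In the liver these include *Igf1*, which encodes the main circulating growth factor, and the feedback inhibitors *Socs2* and *Cish*, while *Bcl6*, which encodes a repressor, is lowered by growth hormone. In male rodents the hormone is secreted in pulses, and the liver reads the pulses through STAT5. Described here are 10 genes of this pathway: the receptor gene *Ghr*, the transcription factor genes *Stat5a* and *Stat5b*, the STAT5-responsive regulators *Socs2*, *Cish* and *Bcl6*, and the IGF-1 system genes *Igf1*, *Igfals*, *Igfbp1* and *Igfbp2*. They were taken as a named pathway and matched by gene symbol, and all 10 were among the 19938 genes measured by a probe set with a single symbol. These genes and the gene lists below were chosen with earlier results of these data known.

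The values come from liver RNA of 24 male mice, of strain C57BL6 in the labels and backcrossed to C57BL/6J in the methods, with 1 Mouse Gene ST array per mouse and 6 mice in each of 4 groups: *Ogg1*-/- mice on the high-fat diet (HFD), WT mice on the HFD, *Ogg1*-/- mice on chow and WT mice on chow. *Ogg1*-/- mice lack OGG1, a glycosylase that removes oxidized guanine from DNA, and the study compared them with WT to learn how its loss alters metabolism. The allele was kept by matings of heterozygous mice, and the labels name no promoter or cell type that limits the deletion. Per the labels, mice were 10 weeks old at the start (the methods give a later age) and were individually housed with free access to either diet for 10 weeks. The time of day at which livers were taken is not stated in the labels or methods used.

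Values are log2 signals after robust multiarray averaging (RMA), so a difference of 1 is a doubling, and the level of one probe set is not comparable with that of another. Over all 35556 probe sets, values ran from 1.81 to 14.81, and the number of arrays limits the precision. A gene is said to have passed, risen or fallen where its limma p was under 0.05 after Benjamini-Hochberg adjustment over all probe sets. The *Ogg1* probe set, which checks the labels, read 5.70 to 6.03 in *Ogg1*-/- and 6.34 to 6.57 in WT livers on the HFD, and 5.85 to 5.997 in *Ogg1*-/- and 6.26 to 6.55 in WT livers on chow, with no overlap in either diet. The 6 measured hepatocyte markers averaged 13.2 to 13.6 per liver across the 4 groups. One liver, *Ogg1*-/- chow replicate 1, stood apart: on the first principal component of the variation within the chow groups, which held 40.2% of that variation, it scored 80.9, and the other 11 chow livers scored -46.1 to 7.74. On this score *Ogg1*-/- livers on the HFD (18.5 to 54.8) and WT livers on the HFD (-20.7 to 10.4) did not overlap. A fit with the score as a covariate therefore cannot separate the score from genotype on the HFD. The score was also computed from these same expression values. Members were refitted without each array in turn and with the score as a covariate, and gene lists without that liver and with the covariate. With the covariate fewer probe sets passed on the HFD, 473 higher and 490 lower in *Ogg1*-/- livers, against 3648 and 3397 without it.

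*Igfals* was the one member that passed between genotypes on the HFD with all arrays. It encodes the acid-labile subunit, the liver protein that holds IGF-1 in its long-lived circulating complex. Its lowest, median and highest values were 9.62, 9.80 and 10.26 in *Ogg1*-/- livers on the HFD, against 8.65, 9.20 and 9.72 in WT livers on the HFD. The *Ogg1*-/- livers sat above most WT livers, with some overlap, and *Igfals* rose by 0.60 ± 0.17 (SE, n = 6 each; 1.51-fold; adjusted p = 0.0174). In this comparison 1 of 10 members passed, against 19.8% of all probe sets (10.3% higher and 9.55% lower), so the share of members did not exceed the background. The call rested in part on WT HFD replicate 6, at 8.65, without which the difference was 0.47 (adjusted p = 0.0531). With the score as a covariate the difference was 0.32 (adjusted p = 0.338).

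On chow *Igfals* ran from 9.24 to 10.23 in *Ogg1*-/- and from 9.02 to 9.68 in WT livers, a difference of 0.25 that did not pass (adjusted p = 0.463). The difference between the 2 diets in the genotype effect was 0.35 (95% interval -0.15 to 0.85), so the *Igfals* rise was not shown to be larger on the HFD than on chow.

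**Figure D1:**
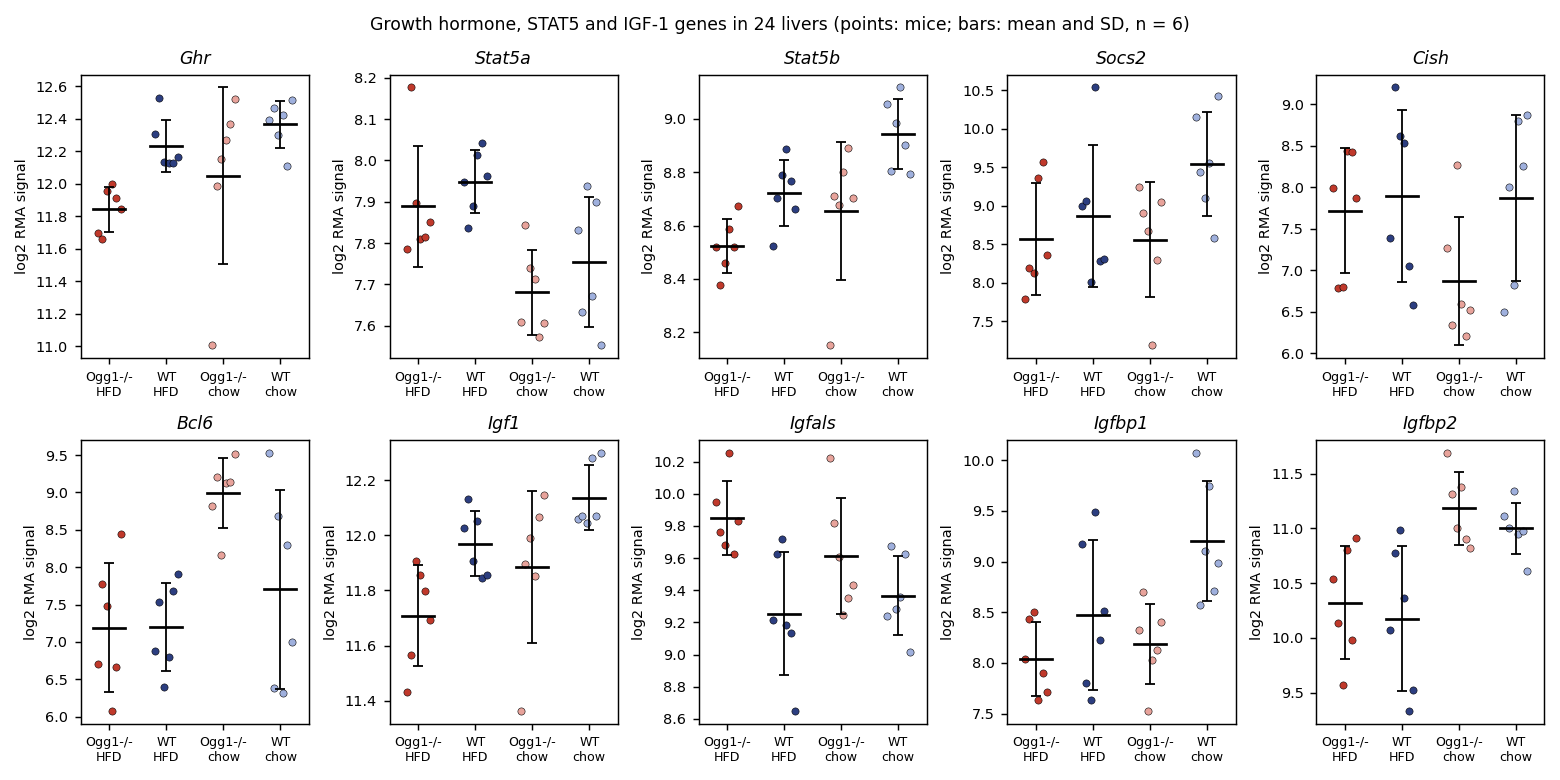
Log2 RMA signal of the 10 genes in each of the 4 groups, left to right *Ogg1*-/- HFD, WT HFD, *Ogg1*-/- chow and WT chow. Each point is a mouse, and bars give the mean and SD of 6 mice. *Ghr* on the HFD shows no overlap between genotypes, *Bcl6* is highest and tightest in *Ogg1*-/- chow livers, and 1 *Ogg1*-/- chow liver lies low for *Ghr*, *Stat5b* and *Igf1*.

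*Ghr* and *Igf1*, the receptor and its best-known hepatic product, had lower values in *Ogg1*-/- livers on the HFD without passing the test. *Ghr* read 11.66, 11.88 and 11.9996 (lowest, median, highest) in *Ogg1*-/- livers, against 12.13, 12.15 and 12.53 in WT livers. Every *Ogg1*-/- liver lay below every WT liver, as was so for 6.04% of all probe sets. The *Ghr* difference was -0.39 ± 0.16 (SE; adjusted p = 0.103). *Igf1* read 11.43, 11.75 and 11.91 in *Ogg1*-/- livers, against 11.85, 11.97 and 12.13 in WT livers. Only 2 *Ogg1*-/- livers reached the lowest WT value, and the *Igf1* difference was -0.26 ± 0.11 (adjusted p = 0.0878).

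These calls depended on the liver that stood apart, which belongs to another group but enters the shared estimate of the spread. Without *Ogg1*-/- chow replicate 1, the HFD comparison passed for *Ghr* (adjusted p = 0.00322), *Igf1* (0.0203) and *Stat5b* (0.0375), beside *Igfals*, so that 4 members passed. Calls rose over all probe sets too, to 4922 higher and 4293 lower, against 3648 and 3397 with all arrays. In a fit of the 12 HFD arrays alone, *Ghr* (adjusted p = 0.00614) and *Igf1* (0.0495) passed as well. With the score as a covariate the *Ghr* difference was 0.06 and none of the 10 members passed, but on the HFD this fit cannot separate the score from genotype. Endothelial markers moved with the same groups: 6 of the 7 fell in *Ogg1*-/- livers on the HFD, against 9.55% of all probe sets lower and 10.3% higher. The endothelial mean per liver was 7.85 to 8.17 in *Ogg1*-/- and 8.23 to 8.76 in WT livers, with no overlap. Of the other lists, against the same shares, 2 of 7 stellate cell markers fell. Of 7 Kupffer cell and macrophage markers, 1 rose (3 without *Ogg1*-/- chow replicate 1) and 2 fell. Of the hepatocyte and cholangiocyte markers, 0 of 6 and 0 of 5 passed in limma (0 and 0 at an unadjusted p under 0.05). In the covariate fit 0 endothelial and 0 stellate cell markers passed and, of the Kupffer list, *Vsig4* alone. At an unadjusted p under 0.05 there were 5 endothelial and 2 stellate cell markers, against 18% of all probe sets in that fit. Their part in the values of *Ghr* and *Igf1* was not tested, and in whole-liver RNA fewer cells of a type and less RNA per cell cannot be told apart.

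On chow 0 of 10 members passed in limma and 0 in the methods' t-test, against 0.478% of all probe sets in limma. At an unadjusted p under 0.05, 6 of 10 members stood out (*Stat5b*, *Igf1*, *Igfbp1*, *Socs2*, *Cish* and *Bcl6*), against 18.0% of all probe sets. Of these 6, 5 had lower means in *Ogg1*-/- livers and *Bcl6* a higher one. The count was 5 without *Ogg1*-/- chow replicate 1, against 11.2% of all probe sets in that fit. With the score as a covariate the count was 2 (*Igfbp1* and *Bcl6*), against 8.64% of all probe sets in that fit. On the HFD 4 members had an unadjusted p under 0.05 (*Ghr*, *Stat5b*, *Igf1* and *Igfals*), against 31.5% of all probe sets, and 0 with the covariate. The median difference over the 10 members was -0.19 on the HFD and -0.27 on chow, beside 0.02 over all probe sets in each diet. With the covariate the medians of the members were -0.07 and -0.09, and without *Ogg1*-/- chow replicate 1 the chow median was -0.13.

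**Figure D2:**
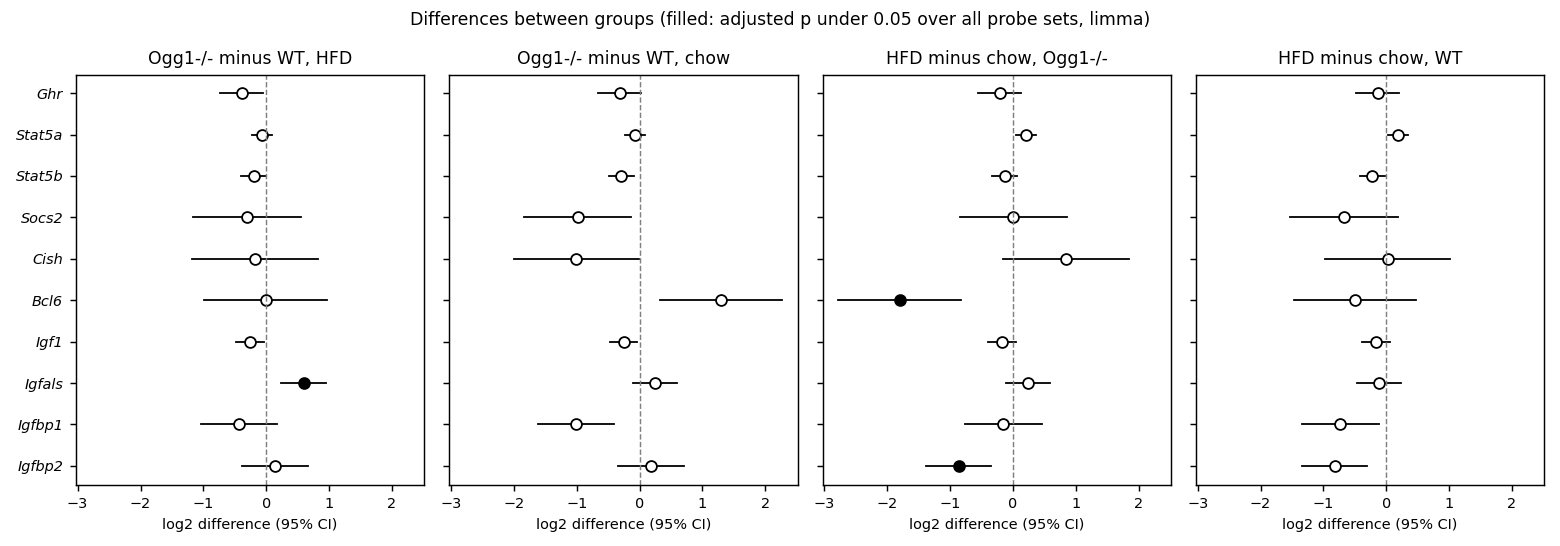
Log2 difference (point) and 95% confidence interval (line) of the 10 genes for *Ogg1*-/- minus WT on the HFD and on chow and for HFD minus chow in *Ogg1*-/- and in WT livers. Filled points had an adjusted p under 0.05 in limma: *Igfals* between genotypes on the HFD, and *Bcl6* and *Igfbp2* between diets in *Ogg1*-/- livers.

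Neither of the 2 STAT5 genes passed in any comparison with all arrays. *Stat5b*, whose product carries most of the growth hormone signal in male liver, read 8.38, 8.52 and 8.67 in *Ogg1*-/- livers and 8.52, 8.74 and 8.89 in WT livers on the HFD, a difference of -0.20 (adjusted p = 0.157). On chow it read 8.15, 8.71 and 8.89 in *Ogg1*-/- livers, against 8.79, 8.94 and 9.12 in WT livers, a difference of -0.29 (adjusted p = 0.156). Without *Ogg1*-/- chow replicate 1 the *Stat5b* difference on chow was -0.19 (adjusted p = 0.343 in limma). *Stat5a*, the close paralogue, differed between genotypes by -0.06 on the HFD and -0.07 on chow. Its difference between diets was 0.21 in *Ogg1*-/- livers (adjusted p = 0.0854) and 0.19 in WT livers (adjusted p = 0.264).

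*Bcl6* had the largest difference of any member. It encodes a transcriptional repressor that binds many of the same liver sites as STAT5. The *Ogg1*-/- livers read 6.08, 7.09 and 8.45 on the HFD, against 8.16, 9.13 and 9.52 on chow. Of the HFD livers, 1 reached the chow range, and *Bcl6* fell by 1.804 ± 0.47 on the log2 scale (SE, n = 6 each; adjusted p = 0.0194). In WT livers it read 6.40, 7.20 and 7.91 on the HFD, against 6.32, 7.64 and 9.53 on chow, a difference of -0.50 (adjusted p = 0.680). The WT chow livers covered almost the whole range seen in the study. Whether the diet effect on *Bcl6* differed between the genotypes was tested as the interaction, which was -1.30 (95% interval -2.68 to 0.07; adjusted p = 0.742).

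The genotypes read almost the same for *Bcl6* on the HFD, with a difference of -0.01 (95% interval -0.98 to 0.96). On chow the difference was 1.29 ± 0.47 (adjusted p = 0.174). The chow comparison and the diet comparison in *Ogg1*-/- livers share the 6 *Ogg1*-/- chow livers, so that their high *Bcl6* values enter both. The fall of *Bcl6* between diets in *Ogg1*-/- livers did not pass without *Ogg1*-/- HFD replicate 1 (adjusted p = 0.0502) or *Ogg1*-/- chow replicate 6 (0.0540), with the score as a covariate (0.0544) or in the methods' t-test (0.0565).

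*Socs2* and *Cish*, the feedback inhibitors that STAT5 induces, had some of the widest spreads in the liver transcriptome. *Socs2* read 7.79, 8.28 and 9.57 in *Ogg1*-/- livers and 8.01, 8.66 and 10.54 in WT livers on the HFD. On chow *Socs2* read 7.19, 8.79 and 9.24 in *Ogg1*-/- livers, against 8.59, 9.50 and 10.43 in WT livers. The chow difference was -0.99 ± 0.41 (adjusted p = 0.220), and a less bright *Socs2* probe set gave -0.56 (adjusted p = 0.213). *Cish* read 6.79, 7.93 and 8.44 in *Ogg1*-/- livers and 6.58, 7.96 and 9.20 in WT livers on the HFD. On chow *Cish* read 6.21, 6.56 and 8.26 in *Ogg1*-/- livers, against 6.50, 8.13 and 8.88 in WT livers, a difference of -1.01 ± 0.48 (adjusted p = 0.274). In both diets the *Cish* ranges of the genotypes overlapped widely.

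Among the 6 mice of 1 group, *Cish*, *Bcl6* and *Socs2* varied more than almost any other gene. Their pooled SD within groups was 0.90 for *Cish*, 0.88 for *Bcl6* and 0.77 for *Socs2*, at the 99.9th, 99.9th and 99.7th percentile among probe sets with a mean log2 of at least 5. *Igfbp1* (0.55, 97.7th percentile) and *Igfbp2* (0.47, 95.4th) followed. The less bright *Socs2* probe set varied less, with an SE of 0.23 for its chow difference, against 0.41 for the one ranked here. *Igfals* had an SD of 0.31 (percentile 83.6) and *Ghr* of 0.30 (percentile 82.0). The *Ghr* SD was 0.16 without *Ogg1*-/- chow replicate 1. The spread was smaller for *Igf1* (0.19, percentile 51.3), *Stat5b* (0.17, percentile 39.9) and *Stat5a* (0.13, percentile 14.2).

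*Cish* and *Bcl6* varied in opposite directions among mice of the same group. After the group means were removed, their Pearson r over 24 livers was -0.675 (p = 0.00099 from 100000 permutations within groups, adjusted p = 0.0149 over the 45 pairs of members; Spearman's rho -0.694, permutation adjusted p = 0.018). The sign was negative in 4 of 4 groups: -0.590 in *Ogg1*-/- and -0.517 in WT livers on the HFD, and -0.918 in *Ogg1*-/- and -0.825 in WT livers on chow. Without the 2 livers farthest from the median of *Cish* it was -0.586, and with the score removed -0.677. Livers high in *Cish* tended to be low in *Bcl6*. In WT chow livers, for example, replicate 1 had a *Cish* value of 6.50 and a *Bcl6* value of 9.53, and replicate 4 had a *Cish* value of 8.79 and a *Bcl6* value of 6.32.

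**Figure D3:**
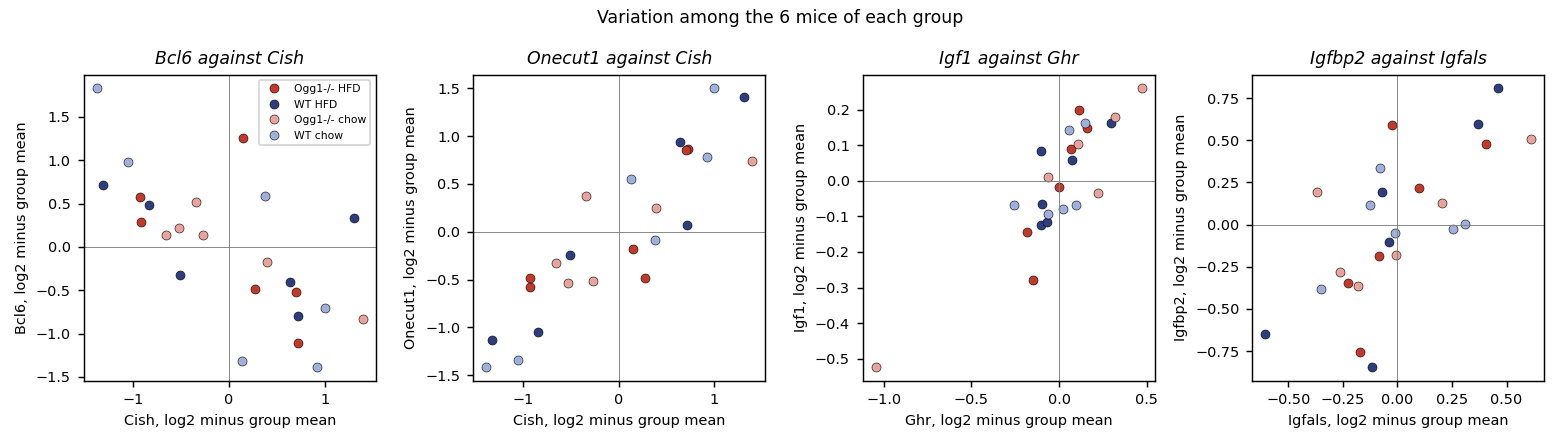
Log2 values minus the group mean in 24 livers, coloured by group, for *Bcl6* against *Cish*, *Onecut1* against *Cish*, *Igf1* against *Ghr* and *Igfbp2* against *Igfals*. *Bcl6* falls as *Cish* rises (r = -0.675), *Onecut1* rises with *Cish* (r = 0.888), and in the third panel 1 *Ogg1*-/- chow liver lies far below the rest.

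The promoters of these 2 genes carry the letters that STAT5 is known to bind, TTCNNNGAA, a palindrome that reads the same on both strands. Promoter windows of 300 bases, 250 before and 50 after each RefSeq start on build GRCm38.p6, matched 9 of the 10 members (not *Socs2*), with 16 windows in all. The motif was in 5 of the 16 windows, from *Cish*, *Bcl6* and *Igfals*, and in 8.30% of all 32851 windows. The sequences around the motif are shown for the pair that varied in opposite directions, with the motif in capitals and 5′ to 3′ on the strand of the gene. The *Cish* stretch begins 5 bases before the start at chr9:107296654-107296683 (plus strand) and holds 2 copies within 20 bases of the start. The *Bcl6* stretches lie on the minus strand, the first at chr16:23988922-23989010 and the other 3 before a second start, at chr16:23981432-23981461, chr16:23981386-23981415 and chr16:23981352-23981381.
Cish: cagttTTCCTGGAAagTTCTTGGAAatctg
Bcl6, first start: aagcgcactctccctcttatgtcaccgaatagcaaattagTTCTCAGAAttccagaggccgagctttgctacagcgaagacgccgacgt
Bcl6, second start: aggccgcggcTTCCTGGAAagttacttctc
Bcl6, second start: ggcaggagtgTTCTGTGAAatccttagagc
Bcl6, second start: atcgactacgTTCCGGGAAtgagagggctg
A match is a description of the sequence, not a measured site.

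Among 7768 genes with a mean log2 of at least 7, the gene most like *Cish* within groups was *Onecut1*, which encodes the hepatocyte factor HNF6 and is itself induced by growth hormone in rat liver. *Onecut1* was singled out after its values were seen. Its r with *Cish* was 0.888 over 24 livers, positive in 4 of 4 groups, and *Chac1* (0.874) and *Foxa2* (0.839) came next. *Onecut1* was also among the 3 genes most opposite to *Bcl6* (r = -0.675), behind *Rangrf* (-0.750), and *Ahr* (0.664) was the gene most like *Bcl6*. These r values were picked as extremes and are given as descriptions. *Onecut1* ran from 7.43 to 8.88 in *Ogg1*-/- and from 7.69 to 10.24 in WT livers on the HFD, and from 7.08 to 8.35 in *Ogg1*-/- and from 7.67 to 10.58 in WT livers on chow. The *Onecut1* difference between genotypes was -0.82 on the HFD (adjusted p = 0.261) and -1.47 on chow (adjusted p = 0.154). The 3 genes most like *Socs2* were *Nrep* (0.702), *Abcc9* (0.674) and *Reln* (0.651).

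*Ghr* and *Igf1* had the highest r of the 45 pairs, 0.862 (p = 2e-05, permutation adjusted p = 0.0009; Spearman's rho 0.817). It was positive in 4 of 4 groups and 0.709 without the 2 livers farthest from the median of *Ghr*. With the score removed, r was 0.185. The genes most like *Igf1* within groups, *Kng1* (0.945), *Atxn3* (0.929) and *Las1l* (0.920), also had lower r values with the score removed (0.737, 0.657 and 0.690). *Stat5b* had an r of 0.63 with *Ghr* and 0.53 with *Igf1* in the matrix of member correlations, neither of which passed, and without *Ogg1*-/- chow replicate 1 these were -0.02 and 0.04. Without *Ogg1*-/- chow replicate 1, 4 pairs passed: *Ghr* and *Igf1* (r = 0.727), *Cish* and *Bcl6* (-0.674), *Igfals* and *Igfbp2* (0.656), and *Ghr* and *Stat5a* (-0.700, permutation adjusted p = 0.00338), whose r over all 24 livers was -0.24.

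**Figure D4:**
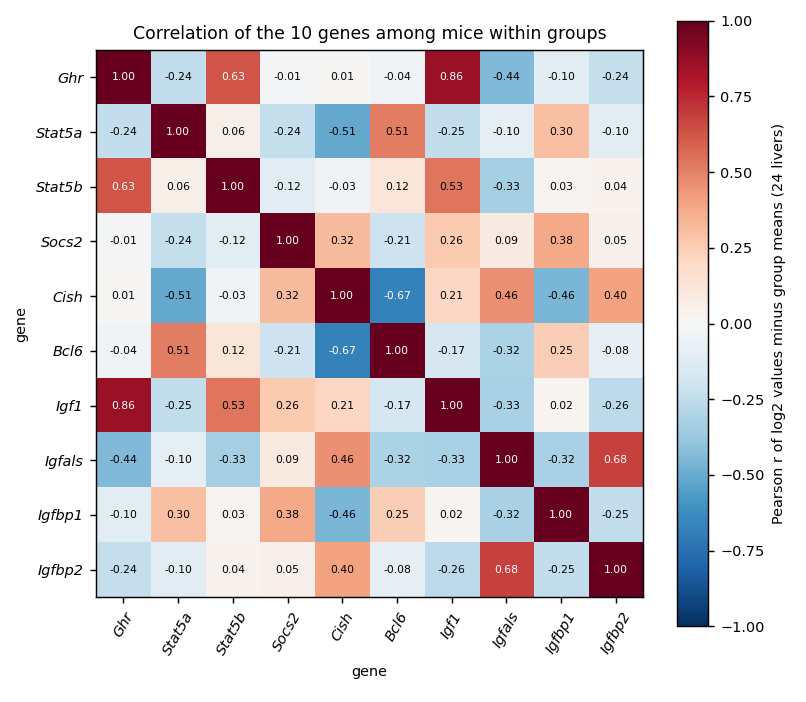
Pearson r between the 10 genes over 24 livers after group means were removed, blue for negative and red for positive. The strongest squares are *Ghr* with *Igf1* (0.86), *Igfals* with *Igfbp2* (0.68) and *Cish* with *Bcl6* (-0.67).

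*Igfbp2* encodes an IGF-binding protein of the liver that is low in obesity. The *Ogg1*-/- livers read 9.57, 10.34 and 10.91 on the HFD, against 10.82, 11.16 and 11.69 on chow. In WT livers it read 9.33, 10.22 and 10.98 on the HFD, against 10.61, 10.99 and 11.34 on chow. The diet difference was close to equal in the genotypes, -0.86 ± 0.25 in *Ogg1*-/- livers and -0.82 ± 0.25 in WT livers (SE, n = 6 each). It passed in *Ogg1*-/- livers (adjusted p = 0.0335) and not in WT livers (adjusted p = 0.137), and the interaction was -0.04 (95% interval -0.78 to 0.70). The genotype difference in *Igfbp2* was 0.15 on the HFD and 0.19 on chow, neither of which passed.

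In *Ogg1*-/- livers 2 of 10 members passed between diets, both lower on the HFD (*Bcl6* and *Igfbp2*), against 9.53% of all probe sets and 4.94% in that direction. At an unadjusted p under 0.05 there were 3 (*Stat5a* as well), against 25.3% of all probe sets. In WT livers 0 of 10 passed in limma and 0 in the methods' t-test, against 0.925% of all probe sets in limma, with 4 members at an unadjusted p under 0.05 (*Stat5a*, *Stat5b*, *Igfbp1* and *Igfbp2*), against 13.4% of all probe sets. With the score as a covariate, *Igfbp2* passed in WT livers too (-0.96, adjusted p = 0.0470). In *Ogg1*-/- livers the count was 5 without *Ogg1*-/- chow replicate 1, when *Ghr* (adjusted p = 0.00293), *Igf1* (0.0183) and *Stat5b* (0.0212) passed as well. In that fit 4563 probe sets rose and 4472 fell, against 1630 and 1758 with all arrays. The member count was 1 without any one of *Ogg1*-/- chow replicates 2, 4, 5 and 6 and *Ogg1*-/- HFD replicates 2, 3 and 5, and 0 without *Ogg1*-/- HFD replicate 1. Over all 24 fits without 1 array, the *Igfbp2* adjusted p ran from 0.0235 to 0.0743. In the interaction of genotype and diet, 0 of 10 members passed in limma, against 0.00281% of all probe sets, and 0 had an unadjusted p under 0.05, against 6.88% of all probe sets.

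*Igfals* and *Igfbp2*, both products of hepatocytes that carry or bind IGF-1, varied together among mice of 1 group. Their r was 0.682 (p = 0.00077, permutation adjusted p = 0.0149; Spearman's rho 0.690) and positive in 4 of 4 groups. It was 0.610 without the 2 livers farthest from the median of *Igfals* and 0.613 with the score removed. The *Igfals* windows also held the TTCNNNGAA motif, shown in capitals for the start at which it lies nearest, chr17:24878163-24878192 on the plus strand.
Igfals: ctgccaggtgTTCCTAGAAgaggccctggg

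*Igfbp1* encodes a binding protein that insulin lowers and fasting raises. On chow its lowest, median and highest values were 7.53, 8.22 and 8.70 in *Ogg1*-/- livers, against 8.57, 9.05 and 10.07 in WT livers. Only replicate 2 of the *Ogg1*-/- livers exceeded the lowest WT liver. The difference was -1.01 ± 0.29 (SE, n = 6 each; adjusted p = 0.117), the smallest p of the members on chow, and did not pass. On the HFD *Igfbp1* read 7.63, 7.97 and 8.51 in *Ogg1*-/- livers, against 7.63, 8.37 and 9.49 in WT livers, a difference of -0.44 (adjusted p = 0.340). In WT livers the diet difference was -0.73 (adjusted p = 0.278), and in *Ogg1*-/- livers it was -0.15 (adjusted p = 0.803).

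The *Igfbp1* promoter holds CAAAACAA, the core of the element through which insulin and FOXO factors act on this gene, which was in 2.51% of all windows (either strand). It is shown in capitals within chr11:7197639-7197726 on the plus strand, ahead of the start.
Igfbp1: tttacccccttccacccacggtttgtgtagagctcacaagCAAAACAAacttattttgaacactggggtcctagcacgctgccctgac

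Within groups, the genes most like *Igfbp1* were *Pdk4* (r = 0.756), a kinase gene that fasting induces, *Egr1* (0.755) and *Mapk1ip1* (0.725). The most opposite was the clock gene *Per2* (-0.803), with the same sign in 4 of 4 groups. *Per2* was named after its values were seen. These r values were picked as extremes among 7768 genes and are given as descriptions. Other fasting-responsive and clock genes are given as values beside *Igfbp1*. Of 7 measured genes that rise on fasting, 3 fell (*Pdk4*, *Ppargc1a* and *Cpt1a*) and 1 rose (*Angptl4*) in *Ogg1*-/- livers on the HFD, against 9.55% of all probe sets lower and 10.3% higher, and 1 fell on chow (*G6pc*, by 0.96), against 0.478% passed. In the covariate fit 0 of the 7 passed on the HFD (1 at an unadjusted p under 0.05), and *G6pc* still fell on chow. Of 4 measured genes that fall on fasting, 1 rose on the HFD (*Srebf1*, 0.92; adjusted p = 0.0566 with the covariate) and 0 passed on chow in limma (0 at an unadjusted p under 0.05). Of 10 measured clock genes, 7 rose and 2 fell in *Ogg1*-/- livers on the HFD, and 7 rose and 1 fell on chow, against the same shares of all probe sets. With the covariate 7 rose and 1 fell on the HFD, and 6 rose and 1 fell on chow, as was so on chow without *Ogg1*-/- chow replicate 1. *Per2* rose by 0.59 on the HFD (adjusted p = 0.00344) and by 0.57 on chow (adjusted p = 0.0359; 0.1005 with the covariate). The part of feeding state or of the hour of collection in the member values was not tested.

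Of the genes that carry the signal from the receptor, 14 of the 16 listed were measured, and 4 rose and 4 fell in *Ogg1*-/- livers on the HFD, against 10.3% of all probe sets higher and 9.55% lower. *Jak2*, the receptor's kinase, averaged 6.29 in *Ogg1*-/- livers and 6.998 in WT livers, and fell by 0.71 (adjusted p = 0.0215). *Ptpn2*, a phosphatase that acts on STAT and JAK proteins, fell by 0.64 (0.0112). The adaptor genes *Shc1* and *Sh2b1* rose by 0.55 (0.00657) and 0.40 (0.0137). The median of the list was 0.11. With the score as a covariate 0 of the 14 passed in limma. On chow 0 passed, with 4 at an unadjusted p under 0.05, against 18.0% of all probe sets.

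Between diets in *Ogg1*-/- livers, 1 gene of this list rose and 2 fell, chosen for naming after their values were seen: *Ptpn1* rose by 0.27, and *Ptpn2* and *Irs1* fell by 0.66 and 0.41, against 9.53% of all probe sets passed. With the covariate *Ptpn2* and *Irs1* passed and *Ptpn1* did not (adjusted p = 0.190). Without *Ogg1*-/- chow replicate 1, 5 rose and 4 fell, beside 4563 and 4472 of all probe sets. In WT livers 0 passed between diets, with 3 at an unadjusted p under 0.05, against 13.4% of all probe sets.

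All 13 listed IGF ligands, receptors and binding proteins outside the 10 members were measured. *Igfbp4*, which encodes an abundant IGF-binding protein of the liver, rose in *Ogg1*-/- livers by 0.32 on the HFD (adjusted p = 0.00681) and by 0.39 on chow (adjusted p = 0.0174). Of the 13 genes, 1 rose and 1 fell on the HFD, against 10.3% of all probe sets higher and 9.55% lower. On chow 1 rose, against 0.478% of all probe sets passed. The genotypes did not overlap for *Igfbp4* in either diet, with no share of all probe sets given for this. With the score as a covariate the chow difference was 0.27 (adjusted p = 0.0187) and the HFD difference 0.15 (0.149). *Insr*, the insulin receptor gene, averaged 9.29 in *Ogg1*-/- livers and 9.98 in WT livers on the HFD and fell by 0.69 (adjusted p = 0.0225), and with the covariate the difference was -0.12 (0.543). No other gene of the list passed between genotypes with all arrays, and *Igf2r* also fell on the HFD without *Ogg1*-/- chow replicate 1. Between diets 0 passed in limma in either genotype. At an unadjusted p under 0.05 there were 2 in *Ogg1*-/- and 1 in WT livers, against 25.3% and 13.4% of all probe sets. Without *Ogg1*-/- chow replicate 1, 2 rose (*Igfbp4* and *Igfbp7*) and 2 fell (*Igf2r* and *Insr*) in *Ogg1*-/- livers, beside 4563 and 4472 of all probe sets.

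**Figure D5:**
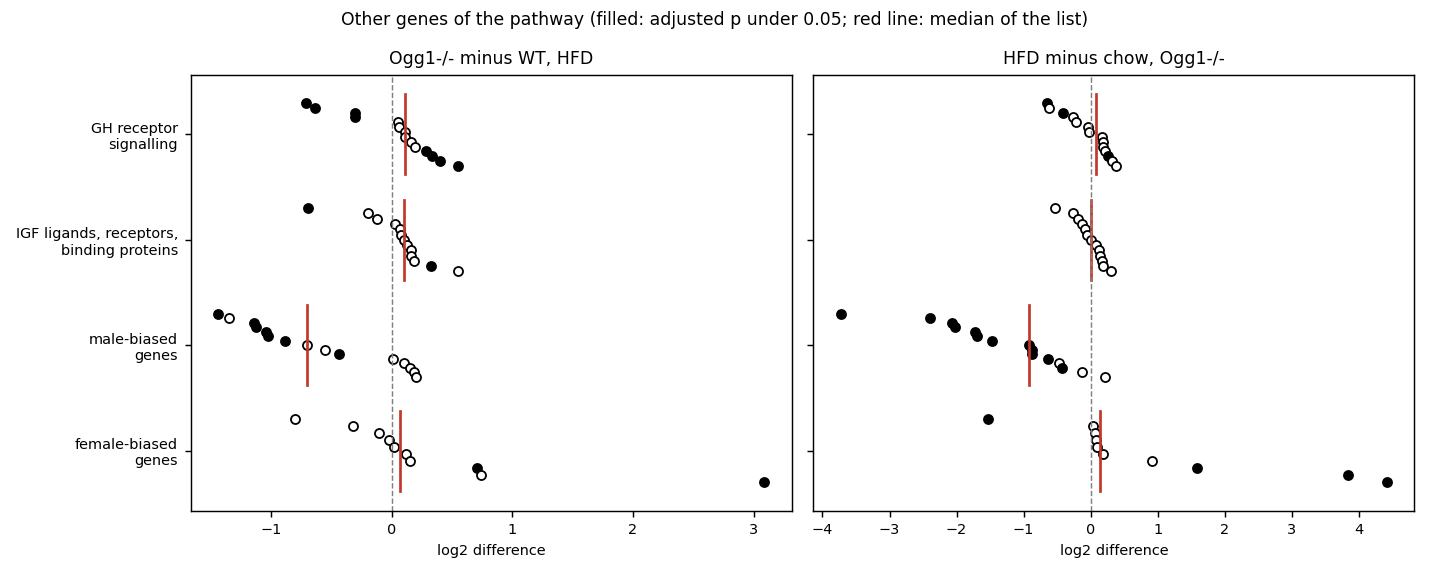
Log2 differences of the measured genes in 4 pathway lists, for *Ogg1*-/- minus WT on the HFD and for HFD minus chow in *Ogg1*-/- livers. Filled points had an adjusted p under 0.05 in limma, and the red line is the median, which for the male-biased genes was -0.70 between genotypes and -0.92 between diets.

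The pulses of growth hormone in males maintain the expression of male-biased liver genes. In *Ogg1*-/- livers on the HFD, 7 of the 15 measured of 17 listed fell and 0 rose, against 9.55% of all probe sets lower and 10.3% higher, with a median of -0.70 beside 0.02 over all probe sets. *Slco1a1*, an organic anion transporter gene, averaged 9.01 in *Ogg1*-/- and 10.45 in WT livers and fell by 1.44 (adjusted p = 0.0347). The complement gene *C6* fell by 1.14 (0.00313), and the fatty acid hydroxylase genes *Cyp4a12b* and *Cyp4a12a* fell by 1.13 (0.0140) and 1.04 (0.0161). These 2 are near-identical copies, so that their probes may share signal. In the covariate fit 1 of the 15 passed (*Elovl3*, -0.74) and the median was -0.29. On chow 1 fell, *Elovl3*, which was named after its values were seen, by 0.67 (adjusted p = 0.0498). The *Elovl3* call on chow was lost with the covariate (0.206), and without *Ogg1*-/- chow replicate 1, when 0 of the 15 passed in limma (1 at an unadjusted p under 0.05).

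Between diets, 12 of the 15 male-biased genes fell in *Ogg1*-/- livers (4.94% of all probe sets), with a median of -0.92, and 5 fell in WT livers (0.394% of all probe sets), with a median of -0.85. The 5 were *Elovl3*, *Cyp4a12a*, *Cyp4a12b*, *Gstp1* and *Egfr*. With the covariate 9 fell in *Ogg1*-/- livers and 5 in WT livers, where *C6* (adjusted p = 0.0491) passed and *Elovl3* (0.0537) did not. In that fit 853 of all probe sets fell in *Ogg1*-/- and 349 in WT livers, against 1758 and 140 without the covariate. The median of the list in WT livers with the covariate was -0.58. The interaction passed for 0 of the 15, with 0 at an unadjusted p under 0.05.

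Of the female-biased genes, 10 of 14 listed were measured, and *Cyp2b13* (3.09, adjusted p = 0.000782) and *Hao2* (0.71, adjusted p = 0.0375) rose in *Ogg1*-/- livers on the HFD, against 10.3% of all probe sets higher. In the covariate fit *Cyp2b13* passed (0.0101) and *Hao2* did not (0.245). The median of the list was 0.07. *Cyp2b9* rose on chow by 2.87 (adjusted p = 0.0384), against 0.478% of all probe sets passed. This call was lost with the covariate (0.124), and without *Ogg1*-/- chow replicate 1, when 0 of the 10 passed in limma (1 at an unadjusted p under 0.05). Between diets 3 rose and 1 fell in each genotype, with or without the covariate: *Cyp2b9* and *Cyp2b13* rose and *Cyp3a44* fell in both, *Hao2* rose in *Ogg1*-/- livers and *Cyp17a1* in WT livers, against 9.53% and 0.925% of all probe sets passed. Without *Ogg1*-/- chow replicate 1, *Cux2* rose too in *Ogg1*-/- livers. The sizes differed: *Cyp2b9* rose by 3.84 in *Ogg1*-/- and 5.97 in WT livers, and *Cyp2b13* by 4.42 and 2.09. In the interaction 0 of the 10 passed in limma. At an unadjusted p under 0.05 there were 3 (*Cyp2b9*, *Cyp2b13* and *Hao2*), against 6.88% of all probe sets. Apart from *Cyp2b13* and *Hao2*, these genes were named after their values were seen. The other 8 of the 10 did not pass between genotypes on the HFD. Some probe sets of the list were dim, with a mean log2 under 5 over all arrays. These were *Hao2* (4.85), *A1bg* (4.11), *Cyp3a16* (3.39) and *Sult3a1* (2.97), and the list median includes them. *Cyp2b13* was dim on chow, where it averaged 4.59 in *Ogg1*-/- and 3.84 in WT livers. On the HFD it averaged 9.01 and 5.92, and the genotypes overlapped.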

How the data were processed

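Liver RNA of 24 mice was hybridized to Mouse Gene ST arrays. Per the labels, the authors deposited log2 values per probe set after RMA, with no version stated. The study's own analysis used GC-RMA values in GeneSifter and limma in iReport. No sample column was left unused. All 35556 probe sets were fitted in 1 limma 3.58.1 model of the 4 groups (R 4.3.3; lmFit, eBayes), checked on simulated data, with p-values adjusted over all probe sets. The platform annotation gave 1 symbol to 21789 probe sets, several to 1621 and none to 12146, and 21698 matched RefSeq by Entrez identifier. The probe set with the highest mean stood for a gene. Promoter sequences are from RefSeq. All 10 members are named, and of each pathway list up to 4 genes with the largest difference among those that passed between genotypes on the HFD. The 3 genes most like *Igf1*, *Igfbp1* and *Socs2* are named, and those for *Cish* and *Bcl6* were added after the data were seen. The genes most opposite to *Bcl6* and *Igfbp1* were likewise added then. Members and lists were chosen with earlier results of these data known. The labels number mice as biological replicates. Genes of a list without a probe set of 1 symbol were not analysed here. Alternatives included a block for the replicate number, centring on array medians, quantile normalization, leaving out probe sets with a mean under 5, the 12 arrays of a comparison alone, the methods' t-test, a trended robust prior, the score as a covariate, the mean over probe sets of a gene, a fold of at least 1.5, and leaving out each array. List counts without *Ogg1*-/- chow replicate 1 and with the covariate, and the genes named for them, were added after the data were seen.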

Additional observations from a re-analysis of the deposited data

Results flagged for a closer look

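Of 40 combinations of member and group, 4 held a liver far from the other 5 by Dixon's criterion, which chance flags in about 1 in 20. In *Ogg1*-/- chow replicate 1, *Ghr* was 11.0045 (others 11.99 to 12.52), *Stat5b* was 8.15 (others 8.68 to 8.89) and *Igf1* was 11.36 (others 11.85 to 12.15). In *Ogg1*-/- HFD replicate 2, *Stat5a* was 8.18, against 7.79 to 7.90 in the other 5 livers of the group.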

How the results depend on the processing

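Between genotypes on the HFD, where 1 member passed, the count was 2 with quantile normalization, 3 with the 12 arrays alone, 2 in the methods' t-test, 0 with the score as a covariate and 0 to 4 on leaving out single arrays. Between diets in *Ogg1*-/- livers, where 2 passed, it was 1 with the 12 arrays alone, 0 in the t-test, 1 with the covariate and 0 to 5 without single arrays. In WT livers it was 1 with the covariate. Of all probe sets, 7045 passed between genotypes on the HFD and 170 on chow, 1 in the interaction, 3388 between diets in *Ogg1*-/- livers and 329 in WT livers. With the covariate the same comparisons gave 963, 112, 2, 1692 and 699. With 12 arrays, 51 passed on chow and 963 between diets in *Ogg1*-/- livers, and in the t-test 33 and 576. Without single arrays the counts ran from 4855 to 9215 on the HFD, from 87 to 1041 on chow, from 1 to 539 in the interaction, from 1351 to 9035 between diets in *Ogg1*-/- livers and from 155 to 677 in WT livers. Of those, 1041 on chow came without *Ogg1*-/- chow replicate 6, and 539 in the interaction and 9035 between diets in *Ogg1*-/- livers without *Ogg1*-/- chow replicate 1.

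Apart from fits without 1 array, signs turned for 13 values of 12 member differences, none of which passed on either side. On leaving out single arrays the sign changed at least once in 12 of the 50 member differences, none of which passed with all arrays. With the covariate, *Ghr* was 0.0636 on the HFD, 0.0044 on chow, 0.0592 in the interaction, 0.148 between diets in *Ogg1*-/- livers and 0.0889 in WT livers; *Igf1* was 0.0655 in the interaction and 0.0267 between diets in *Ogg1*-/- livers. *Igfbp2* was -0.0139 on chow and -0.134 on the HFD, and *Cish* was -0.04 between diets in WT livers. *Socs2* was -0.0341 between diets in *Ogg1*-/- livers as the mean of its probe sets, and *Bcl6* on the HFD was 0.0111 with median centring and 0.0393 with quantile normalization. The cause was not tested.

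Same-numbered mice were not treated as pairs. Over 36 same-numbered pairs, residual correlations ran from -0.27 to 0.43 with a median of -0.03, and 10 were over 0.1. Mice with different numbers were not compared in this way. With a replicate block, 0 members and 137 probe sets passed between genotypes on chow and 1 and 7015 on the HFD. Between diets 2 members and 3375 probe sets passed in *Ogg1*-/- livers and 0 and 276 in WT livers, and the interaction passed for 0 members and 1 probe set. With it the adjusted p was 0.0163 for *Igfals*, 0.0257 for *Bcl6* and 0.0356 for *Igfbp2*, so that no member's call changed. The 6 mice per group limit what can be resolved: the 95% interval of the *Cish* difference on the HFD ran from -1.18 to 0.82.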
